A study of Mus musculus with 249 samples.

Results

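The region described here covers chromosome 1 from 74 to 79.5 Mb of the mouse mm9 genome build and carries 4 developmental genes, Wnt6, Ihh, Epha4 and Pax3. It was taken as the 137 windows of 40 kb in that interval, of 4930 windows on chromosome 1 and 68162 in the whole table, and the choice used gene positions rather than measured values. All 137 windows were positive in at least 25 of the 249 libraries, the minimum set for a linkage value, as were 4785 windows of chromosome 1. The measurement was genome architecture mapping (GAM), in which thin cryosections of nuclei are cut out by laser, several of these nuclear profiles are pooled in a tube, and their DNA is amplified and read as a single library. A library gives a positive or negative call for every window, and windows that lie close together in the nucleus tend to be positive in the same libraries.

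All 249 libraries were made from the line 46C, embryonic stem cells of 129/Ola mice with a green fluorescent reporter at Sox1, which were grown undifferentiated on gelatin with LIF and moved to serum-free medium before harvest. No gene is altered between groups. Every title gives 4 profiles cut into each tube, and a cut profile does not always pass through the nucleus. The libraries belong to 11 collection experiments that differ in bench protocol. The largest, the full collection, held 54 libraries, and 31 libraries compared 3 sets of amplification reagent volumes, called protocol A (10), protocol B (11) and protocol C (10). Proteinase K at 1 µl (5) was set against 2 µl (6), frozen caps (10) against unfrozen caps (11) after incubation, early freezing (12) against late freezing (11), and the small kit (12) against the large kit (11). PCR was run for 20 cycles (4), 23 cycles (5) or 25 cycles (3). Cresyl violet stained profiles (16) were set against unstained ones (10). Titles of the propidium iodide experiment also name freezing, without giving the state of each library. Only unstained libraries were present from the propidium iodide (20), eosin (18) and SYBR Gold (10) experiments. All are from a single cell line, so the p-values below measure the spread between libraries of that line. Expression was not measured, so the activity of the 4 genes in these cells is not known from these data.

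Wnt6 encodes a secreted Wnt ligand, Ihh the secreted ligand Indian hedgehog that paces cartilage growth, Epha4 a receptor tyrosine kinase for ephrins that guides axons and cell sorting, and Pax3 a transcription factor of the neural crest and of muscle precursors. Chromatin folds into topologically associating domains, stretches within which loci meet more often than across their borders, and many borders are bound by CTCF, a DNA-binding protein that halts loop extrusion by cohesin in a manner that depends on the orientation of its site. This locus is a textbook case of the importance of such borders. Limb enhancers that lie beside Epha4 act on Epha4, and deletions, inversions or duplications that move a border expose Wnt6, Ihh or Pax3 to them and cause malformed digits.

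The sequences that bear on borders here are matches to the CTCF core consensus, a degenerate motif of 14 bases, which was searched by exact letters on both strands of the NCBIM37 genome, the same assembly as mm9. The first 5 lines are the matches inside the domain that holds Wnt6 and Ihh, the sixth lies in the border window that closes that domain, and the last 2 are the nearest matches on either side of the Epha4 start. Each line reads 5′ to 3′ on the strand of the match, with the match in capitals and 8 flanking bases on each side.
Wnt6 and Ihh domain, chr1:74690672-74690701, plus strand, intergenic: caggaatcCCACTAGGTGGCAGgagagaac
Wnt6 and Ihh domain, chr1:74831229-74831258, plus strand, untranslated region of an exon of Wnt6: attagattCCAGCAGGGGGCGCtgtctgag
Wnt6 and Ihh domain, chr1:74927524-74927553, plus strand, intergenic: ctctcggaCCAGCAGAGGGCGCgcaccact
Wnt6 and Ihh domain, chr1:74941712-74941741, plus strand, intergenic: agaggtggCCACTAGGGGGCGGggccagtc
Wnt6 and Ihh domain, chr1:75474144-75474173, plus strand, exon of Chpf: gtgttgctCCAGCAGGTGGCGCagcgccag
Border window after that domain, chr1:75594395-75594424, minus strand, intergenic: acactctgCCACTAGGGGGCAGcatatccc
Nearest to the left of the Epha4 start, chr1:76213666-76213695, plus strand, intergenic: tcatgttaCCAGTAGGTGGCACtctctaaa
Nearest to the right of the Epha4 start, chr1:77975449-77975478, plus strand, intergenic: cttcacaaCCACTAGATGGCGCcaactgtt
The 5 matches inside the Wnt6 and Ihh domain all lay on the plus strand, and the match in the border window lay on the minus strand. In the other domains of the region that held matches, 2 of 3, 2 of 2, 1 of 2 and 1 of 1 lay on the plus strand. Around Epha4 no match was found for 1.76 Mb, against a median gap of 0.206 Mb between neighbouring matches on chromosome 1. Of the 387 gaps 5.94% were at least as long. Long gaps cover more positions than short ones, so a larger share of positions lies in gaps this long, and that share was not computed. Of the region's windows 8.76% held a match, against 7.34% on the whole chromosome. These are letter matches only, and CTCF binding was not measured.

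The region was sampled about as often as the rest of its chromosome. Its windows were positive in 33 to 61 libraries with a median of 47, which was also the median of the other chromosome 1 windows. In a library, the share of the region's windows that were positive ranged from 0 to 85.4% with a median of 13.9%, and averaged 18.95% ± 20.4 (SD, n = 249). The rest of chromosome 1 averaged 18.5% ± 12.7 (SD, n = 249). The difference within libraries was 0.438 percentage points ± 1.06 (SE), with the region higher in 104 of 249 libraries (permutation test with flipped signs, two-sided, p = 0.681). In 47 libraries no window of the region was positive, and in none were all windows positive. Depth in reads is not known, because the table holds calls only. Libraries were positive for 3.40 to 45.2% of all listed windows.

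**Figure D1:**
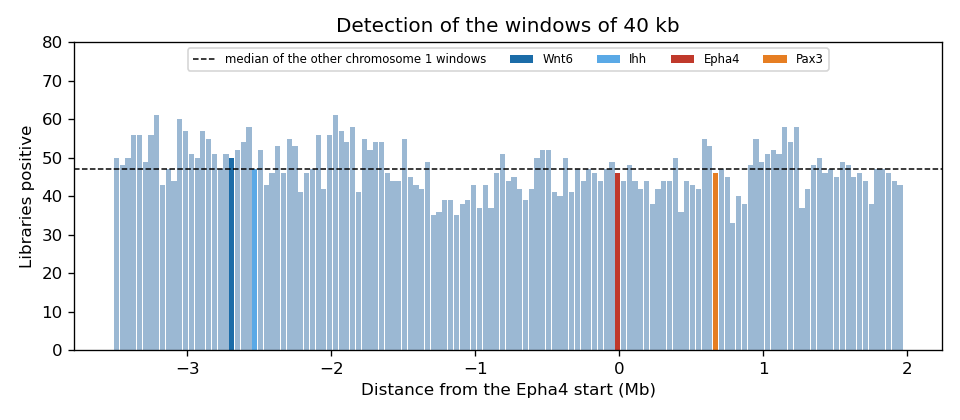
Number of libraries, of 249, in which each 40 kb window of the region was positive, against its distance from the Epha4 start in Mb, with the windows of the 4 gene starts coloured and the median of the other chromosome 1 windows (47) as a dashed line. The gene windows, at 46 to 50 libraries, lie close to that median, and no window of the region falls below 33.

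The 4 gene starts were detected at closely similar rates. Wnt6 (ENSMUSG00000033227.6, chr1:74818466-74831893, plus strand) has its start in a window that it shares with Wnt10a, another Wnt ligand, and that was positive in 50 of 249 libraries, 20.1% (95% Wilson interval 15.6 to 25.5%). The Ihh start (ENSMUSG00000006538.8, chr1:74991891-74998246, minus strand) was positive in 47 libraries, 18.9% (14.5 to 24.2%). The Epha4 start (ENSMUSG00000026235.7, chr1:77363760-77511663, minus strand, spread over 4 windows) was positive in 46 libraries, 18.5% (14.1 to 23.8%). The Pax3 start (ENSMUSG00000004872.9, chr1:78097842-78193709, minus strand, spread over 3 windows) was likewise positive in 46 libraries. These intervals overlap throughout and cover counting error only. Of the 249 libraries, 143 held none of the 4 gene windows, 51 held 1, 32 held 2, 18 held 3 and 5 held all 4.

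Detection of the region did not separate the collection experiments. The mean difference from the rest of chromosome 1 ran from -7.92 percentage points ± 11.4 (SD, n = 20) in the propidium iodide experiment to 4.09 ± 14.4 (SD, n = 12) in the PCR cycle experiment, and experiments accounted for 3.98% of its variance (permutation test, p = 0.455). The Wnt6 window was positive in 9 of 31 libraries of the reagent volume experiment and in 0 of 11 of the proteinase K experiment, a count that allows a share of up to 27.3%. The Epha4 window was positive in 6 of 23 libraries of the kit size experiment and in 0 of 10 of the SYBR Gold experiment, which allows up to 30.0%. Within experiments, 11 contrasts between protocol arms were made, and none passed the threshold of 0.05 after adjustment (permutation tests, exact where an arm held fewer than 10 libraries, smallest p = 0.363, adjusted p = 0.911). The largest difference of means was that of cresyl violet, where the difference from the rest of the chromosome was 0.240 points ± 17.9 (SD, n = 16) in stained and -6.85 ± 22.2 (SD, n = 10) in unstained libraries, a gap of 7.09 points (permutation test, p = 0.384). With medians in place of means it was 4.64 points, and the largest was that of the large against the small kit at 10.1 points.

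Linkage was measured as D′, normalized linkage disequilibrium, which is 0 when 2 windows are positive together as often as their separate frequencies predict and 1 when the rarer is never seen without the other. D′ falls with genomic distance, so each pair was set against all chromosome 1 pairs at the same distance, and its z-score is the difference from their mean in units of their SD. In the map of the region, linkage was high in a block from Wnt6 to beyond Ihh, and again in a wide block that reached from about 75.6 Mb to the Epha4 start. Pairs that joined both blocks were weakly linked. To the right of Epha4 the band of high values along the diagonal narrowed.

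**Figure D2:**
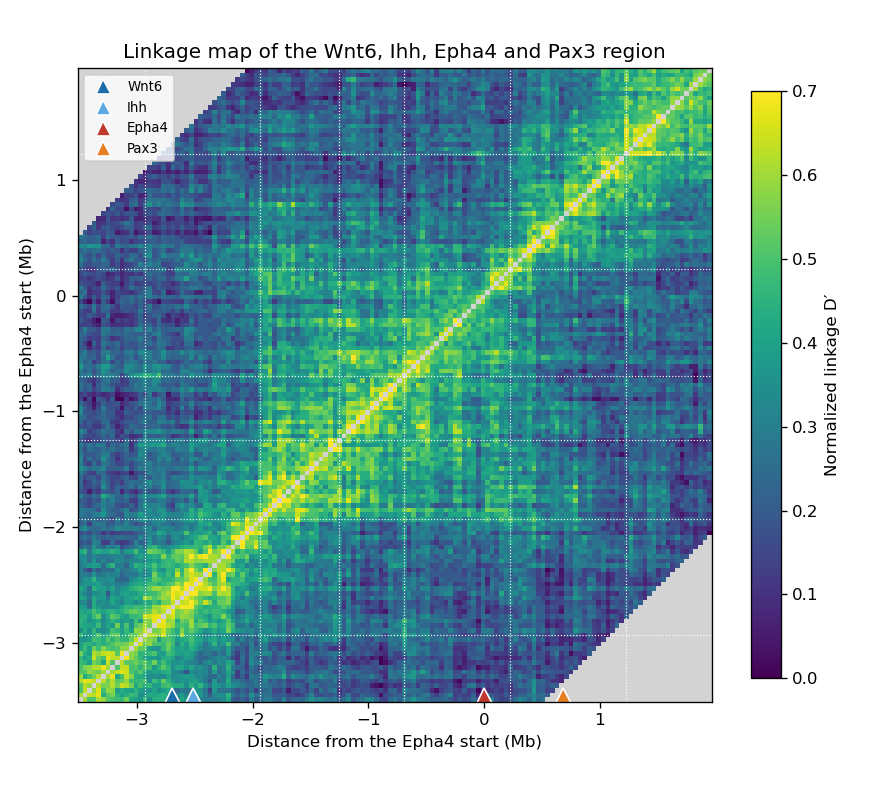
Normalized linkage D′ (colour) between all pairs of 40 kb windows of the region up to 4 Mb apart, with both axes in Mb from the Epha4 start, dotted lines at the 6 borders and triangles at the 4 gene starts. The block to the left of Epha4 reaches back to the border 1.93 Mb away, and the band of high values narrows between Epha4 and Pax3.

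To place borders, the mean D′ between the windows within 400 kb on the left and those within 400 kb on the right was taken at each window as an insulation score, where a low score marks strong insulation. Borders were called as local minima at least 0.5 SD deep. Chromosome 1 averaged a score of 0.427 with an SD of 0.0435 over windows. The region held 6 of the 214 borders of chromosome 1, which is 1.09 per Mb in the region and 1.09 per Mb on the chromosome. Borders are a description of these libraries, since the same values that placed them give their depth.

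The border with the deepest minimum of the score lay between Epha4 and Pax3, at 77.74 Mb, where no gene starts within 1 window. Its score was 0.320 ± 0.0401 (jackknife SE over 249 libraries), lower than all but 0.546% of chromosome 1 windows, and its depth of 4.07 SD was exceeded by 15 of the 214 chromosome 1 borders. Pairs that crossed it at 80 to 400 kb were linked no less than pairs beside it, at a D′ of 0.416 across and 0.413 beside over all libraries. At each of the other 5 borders linkage was lower across than beside, as at 75.58 Mb with 0.442 across and 0.499 beside. Beside those 5 the D′ was 0.499 to 0.537, so the pairs beside 77.74 Mb were themselves less linked. They overlap the run of low scores described next. Low scores were not limited to the window at 77.74 Mb. All 13 windows from 77480001 to 78000000, starting at the window of the Epha4 start and ending before the Pax3 gene, lay below the 5th percentile of the chromosome. Of the 58 such runs on chromosome 1 only 2, this one included, were at least as long, and the median run held 3 windows. The windows of this run were positive in 36 to 50 libraries with a mean of 43.5, somewhat below the chromosome median of 47, and the part of detection in the low scores was not tested. The position of the minimum within the run was loosely fixed. A border was found between the Epha4 and Pax3 genes in 18 of 19 other settings and subsets of libraries, with its deepest position from 77.74 to 77.9 Mb, and it lay within 1 window of 77.74 Mb in 11 of them. Most of these settings share most of their libraries, so the counts are not independent repeats. In the full collection alone the border lay at 77.5 Mb, in the window of the Epha4 start, and none lay between the genes.

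**Figure D3:**
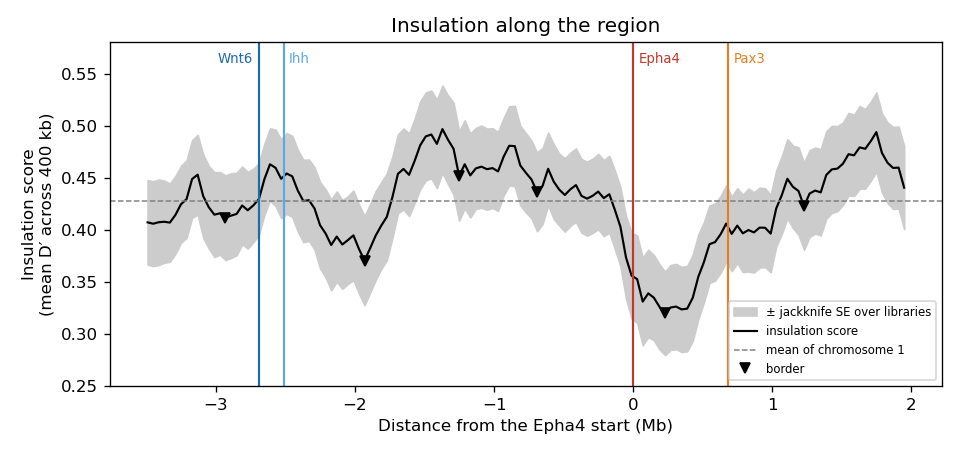
Insulation score (mean D′ across 400 kb, black line) with its jackknife SE over libraries (grey) at each window of the region, against distance from the Epha4 start in Mb, with triangles at the 6 borders, coloured lines at the gene starts and a dashed line at the chromosome 1 mean of 0.427. The score drops from the Epha4 start to its minimum of 0.320 and returns towards the mean near Pax3, and a shallower minimum of 0.370 lies to the right of Ihh.

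The second border in depth closed the Wnt6 and Ihh domain at 75.58 Mb, beside Stk11ip and Slc4a3, the latter an anion exchanger gene. Its score was 0.370 ± 0.0427 (jackknife SE), at the 9.70th percentile of chromosome 1, and its depth 2.71 SD. It was the most stable in position, found within 1 window in 17 of 19 other settings and subsets, most of which share most libraries. The exceptions were the libraries without the freezing after incubation experiment and the full collection alone, where the nearest border lay at 75.34 Mb. The window holds the minus strand CTCF core match printed above. The other 4 borders were shallow. They lay at 74.58 Mb in a gene-dense stretch with Usp37 and Zfp142 (0.949 SD), at 76.26 Mb (0.668 SD) and 76.82 Mb (0.507 SD) where no gene starts, and at 78.74 Mb beside Acsl3, a fatty acid activating enzyme gene (0.607 SD). They were found within 1 window in 13, 7, 8 and 10 of 19 settings and subsets respectively. A CTCF core match within 1 window was present at the borders at 75.58 and 76.26 Mb, and at none of the other 4, the border between Epha4 and Pax3 included. Of chromosome 1 windows 19.3% have a match within 1 window.

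Whether a border separates its 2 sides was tested in libraries that had not placed it. Borders were called from the 195 libraries of the other experiments, and in the 54 libraries of the full collection the linkage of pairs crossing each border was set against pairs on either side at equal distances of 80 to 400 kb. None of 210 chromosome 1 borders was called with lower linkage across (0%, adjusted p under 0.05 in the permutation test with flipped signs), and 0.952% passed without adjustment, or 1.43% with centred jackknife values and 6.67% with the phi coefficient in place of D′. Linkage was lower across in 61% of them whatever their p. The 4 borders that the 195 libraries placed in the region gave differences of -0.0330 ± 0.0585 at 74.46 Mb, -0.0326 ± 0.0743 at 75.58 Mb, -0.0751 ± 0.0552 at 76.34 Mb and 0.0969 ± 0.109 (jackknife SE) at 77.9 Mb. All 4 adjusted p-values were 0.987. At the last of these, to the right of Epha4, the 54 libraries linked windows across the border (0.672) no less than beside it (0.576), with the widest error of the 4. With the roles exchanged, 0.441% of 227 borders were called with lower linkage across and 7.05% passed without adjustment. The full collection placed its border at 77.5 Mb, in the window of the Epha4 start, where the other 195 libraries gave 0.384 across and 0.455 beside, a difference of -0.0713 ± 0.0425 (permutation test, p = 0.247). That was the most negative of its 6 borders in the region. The other 5 gave 0.0201 at 74.14 Mb, -0.00316 at 74.58 Mb, -0.0399 at 75.34 Mb, -0.00510 at 76.54 Mb and 0.00951 at 78.3 Mb. No separation was therefore detected at single borders of this region. The power of the test was not assessed, so no separation and too few libraries cannot be told apart.

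The domains between borders differed in gene content. Their mean linkage, given here without an error or a test, varied as well. The Wnt6 and Ihh domain, from 74.6 to 75.56 Mb, held 38 starts of protein-coding genes, 39.6 per Mb. It was followed by 2 intervals with none, 75.6 to 76.24 Mb and 76.28 to 76.8 Mb. Epha4 was the only gene to start in its domain, from 76.84 to 77.72 Mb, and the Pax3 domain, from 77.76 to 78.72 Mb, held 7 starts, among them Sgpp2, a sphingosine phosphate phosphatase, and Farsb, a transfer RNA synthetase subunit. GC content fell from 48.2% in the Wnt6 and Ihh domain to 41% in the Epha4 domain. Mean D′ within a domain at 80 to 400 kb was 0.523 in the Wnt6 and Ihh domain, 0.461 in the Epha4 domain and 0.467 in the Pax3 domain, against a chromosome 1 mean of 0.481. Over all pairs inside a domain the mean z-score was highest in the empty interval from 75.6 to 76.24 Mb, at 0.545, and was -0.112 in the Epha4 domain and -0.281 in the Pax3 domain.

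Linkage between domains was uneven for equal distance. The Epha4 domain was linked most to the empty interval from 75.6 to 76.24 Mb, with a mean z-score of 0.895 over 352 pairs, of which 46.0% exceeded 1. It was linked least to the neighbouring Pax3 domain, with a mean z-score of -0.891 over 528 pairs, of which 2.27% exceeded 1. For comparison, 15.5% of chromosome 1 pairs and 11.0% of all pairs in the region at least 200 kb apart exceeded 1. Across the border at 76.26 Mb the empty intervals had a mean z-score of 0.501 with each other. Across that at 76.82 Mb the second had 0.401 with the Epha4 domain. Pairs inside the first interval had 0.545, inside the second 0.200 and inside the Epha4 domain -0.112. The Wnt6 and Ihh domain was linked less than average to the empty intervals beside it, at -0.561 and -0.798, and nearer to average with the Epha4 domain, at -0.287, and with the Pax3 domain, at -0.0756. The Pax3 domain reached a mean z-score of 0.339 with the first empty interval, over the Epha4 domain that lies between. The domains were cut at minima of linkage in these same libraries, which favours low values between neighbouring domains. Pairs within such a rectangle also share windows and libraries, so these means carry no test.

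**Figure D4:**
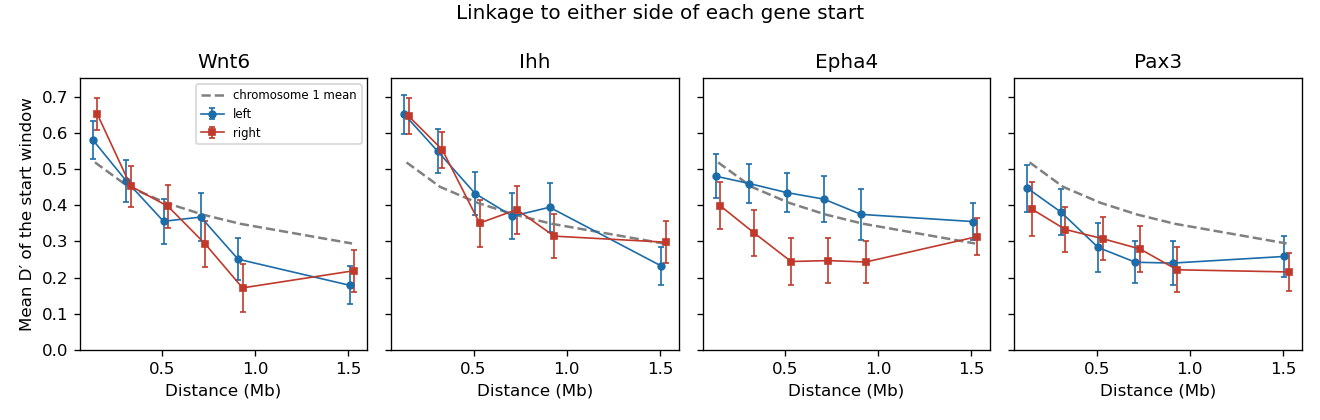
Mean D′ (± jackknife SE over 249 libraries) between each gene's start window and windows to its left (circles) and right (squares), against distance in Mb, with the chromosome 1 mean at equal distance as a dashed line. Epha4 is linked more to its left than to its right in every distance bin, Pax3 lies below the chromosome mean on both sides, and Ihh lies above it at short distance.

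Each gene start was compared with its left and right side at equal distances from 80 kb to 1 Mb, left being towards lower coordinates. Epha4 showed the strongest asymmetry of the 4 genes. Its start window was positive together with windows on the left in 16 to 27 libraries, a mean of 23.5 where 8.24 would occur by independent sampling, and with windows on the right in 13 to 25 libraries, a mean of 18.2 with the same expectation of 8.24. Both sides were thus seen with Epha4 more often than independence gives, and the 2 ranges overlapped. Mean D′ was 0.431 on the left and 0.287 on the right, a difference of 0.144 ± 0.0486 (jackknife SE, n = 249). The difference passed the test by itself but not after adjustment over the 4733 chromosome 1 windows tested (permutation test with flipped signs, p = 0.00736, Benjamini-Hochberg adjusted p = 0.177), and its size was at the 97.7th percentile of the chromosome. On that chromosome 0.507% of windows were called after adjustment, 0.148% with the left side higher and 0.359% with the right, and 12.6% passed without adjustment.

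The gap was widest at the middle distances from the Epha4 start. At 80 to 200 kb D′ was 0.480 ± 0.0612 on the left and 0.398 ± 0.0653 on the right, at 440 to 600 kb 0.435 ± 0.0539 and 0.244 ± 0.0662, and at 840 to 1000 kb 0.375 ± 0.0711 and 0.243 ± 0.0588. At the first of these distances the chromosome mean was 0.518, above both sides. At the other 2 it was 0.407 and 0.349, below the left side and above the right. From 1040 to 2000 kb the sides lay closer, at 0.355 and 0.313. Taken over 80 kb to 2 Mb the difference was 0.0918 (adjusted p = 0.441), over 1.5 times smaller, and over 80 to 400 kb it was 0.112 (adjusted p = 0.567). Within experiments that had at least 3 libraries positive for the window, the left side was higher in 6 of 8, the difference ranging from -0.330 in the PCR cycle experiment to 0.690 in the propidium iodide experiment. One window of the region was called after adjustment, 77240001 to 77280000 downstream of Epha4 (0.73% of 137 windows), with left above right by 0.126 ± 0.0502 (adjusted p = 0.0383). That call was lost when any of the 11 experiments was left out and, at an adjusted p of 0.254, when the jackknife values were centred on the estimate, an alternative chosen after seeing the data, under which 0.275% of chromosome 1 windows were called.

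The other 3 genes showed no difference between sides beyond the error. The Wnt6 window had a D′ of 0.397 on the left and 0.382 on the right, a difference of 0.0145 ± 0.0507 (jackknife SE, adjusted p = 0.937). It was seen with windows on the left in 17 to 34 libraries and on the right in 12 to 38. For Ihh the values were 0.472 and 0.442, a difference of 0.0298 ± 0.0604 (adjusted p = 0.930), and it was seen with its left windows in 19 to 36 libraries and with its right windows in 19 to 37. For Pax3 they were 0.313 and 0.303, a difference of 0.0108 ± 0.0453 (adjusted p = 0.959), with 15 to 30 and 14 to 26 libraries. Levels differed between the genes at short range. At 80 to 200 kb Ihh reached 0.651 ± 0.0530 on the left and 0.645 ± 0.0498 on the right, and Wnt6 0.581 ± 0.0528 and 0.652 ± 0.0442, above the chromosome mean of 0.518. Pax3 was below it at 0.447 ± 0.0645 and 0.389 ± 0.0749, and stayed below the chromosome mean on both sides at every distance up to 2 Mb.

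Of the 6 pairs of gene starts, Wnt6 and Ihh, 0.16 Mb apart, were linked most. They were positive together in 36 libraries where 9.44 would occur by independent sampling, with a D′ of 0.707 ± 0.0750 (jackknife SE, n = 249). The chromosome 1 mean at that distance was 0.502, and the pair stood 2.28 SD above it, at the 99.1th percentile. Independence was tested by Fisher's exact test at every chromosome 1 pair up to 4 Mb apart, of which 89.1% were called, and this pair had an adjusted p of 1.8e-19. At that distance 4761 of 4763 pairs were called (100% after rounding), so the call by itself is no distinction. In the 54 libraries of the full collection the D′ was 0.688, and in the 195 others 0.738. None of the other pairs was called in the full collection alone, where Wnt6 and Pax3 turned to -0.169.

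**Figure D5:**
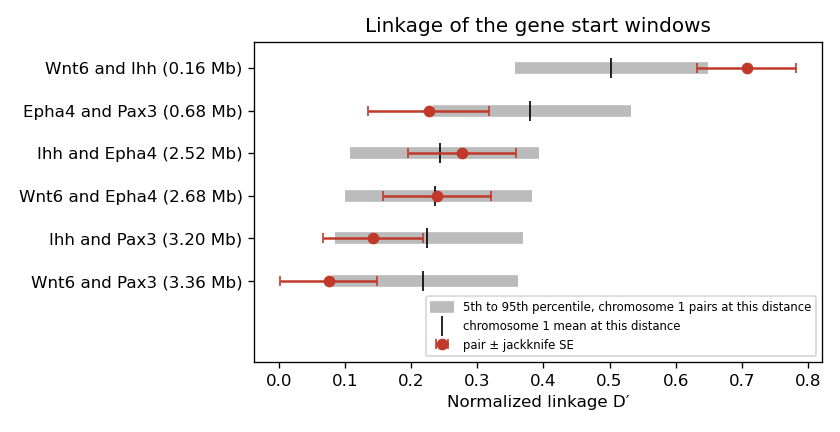
Normalized linkage D′ of the 6 pairs of gene start windows (points, with jackknife SE over 249 libraries), ordered by distance in Mb, beside the mean (tick) and the 5th to 95th percentile (grey bar) of all chromosome 1 pairs at the same distance. Wnt6 and Ihh lie above the bar at 0.707, and the pairs Epha4 and Pax3 and Wnt6 and Pax3 lie just below the lower end of theirs.

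Epha4 and Pax3, the next closest pair at 0.68 Mb, were weakly linked for their distance. Both were positive in 17 libraries against 8.50 by independent sampling, and the D′ of 0.227 ± 0.0914 had a z-score of -1.65 against the chromosome mean of 0.379, at the 4.29th percentile. The pair still departed from independence (Fisher's exact test, adjusted p = 0.00188), as did 99.5% of pairs at that distance. A direct comparison used all windows of both genes. The 12 pairs between the Epha4 and Pax3 genes had a mean D′ of 0.283 ± 0.0534, and pairs from Epha4 to the windows as far on its other side, which hold no gene (76560001 to 76920000), had 0.355 ± 0.0477. The difference of -0.0724 ± 0.0695 was close to its error (permutation test with flipped signs, p = 0.212), and it was negative in 4 and positive in 4 of 8 experiments.

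Over the longer distances Ihh and Wnt6 were linked to Epha4 about as much as the chromosome average. Ihh and Epha4, 2.52 Mb apart, were positive together in 19 libraries with 8.68 expected, a D′ of 0.276 ± 0.0813 against a mean of 0.244. Wnt6 and Epha4, 2.68 Mb apart, shared 18 libraries with 9.24 expected, a D′ of 0.238 ± 0.0817 against 0.236. Both passed Fisher's exact test (adjusted p = 0.000198 and 0.00146), as did 86.3% and 83.6% of pairs at these distances. Taken over all windows of the genes, D′ from Epha4 to Ihh and Wnt6 was 0.203 ± 0.0573, and to windows as far on the other side, which hold Wdfy1, Mrpl44, Serpine2 and Fam124b, 0.161 ± 0.0463. The difference of 0.0421 ± 0.0609 was smaller than its error (permutation test with flipped signs, p = 0.761).

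The long-distance pairs with Pax3 had the lowest D′ of the 6, though for equal distance Epha4 and Pax3 had the lowest z-score. Ihh and Pax3, 3.2 Mb apart, shared 14 libraries with 8.68 expected, a D′ of 0.142 ± 0.0753 with a z-score of -0.919 (Fisher's exact test, adjusted p = 0.0411, with 79.7% of pairs called at that distance). Wnt6 and Pax3, 3.36 Mb apart, shared 12 libraries with 9.24 expected, and were the only pair of the 6 not called (D′ 0.0752 ± 0.0733, adjusted p = 0.314), where 77.5% of pairs at that distance were. Its z-score was -1.61 against the mean of 0.218, at the 4.45th percentile. With libraries divided into 3 classes of coverage, the same 5 pairs were called, with 79.3% of all chromosome 1 pairs.

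Of the 5 strongest pairs of the region for their distance, 4 joined the empty intervals to the stretch around and beyond Epha4. Among pairs at least 200 kb apart, the highest z-score, 4.15, belonged to the window 75840001 to 75880000 and a window that overlaps Sgpp2, 78280001 to 78320000. They are 2.44 Mb apart and were positive together in 23 libraries (D′ 0.613 ± 0.101 against a mean of 0.244). The Sgpp2 window was positive in 33 libraries, the fewest of the region. The second highest, 3.71, joined the same window to 75720001 to 75760000. The third, 3.48, lay between the second empty interval and the Epha4 domain, 0.6 Mb apart (D′ 0.711 ± 0.0890), and the fourth, 3.20, joined 75640001 to 75680000 with the window just upstream of Epha4, 77520001 to 77560000 (D′ 0.556 ± 0.0888, 29 libraries together). The fifth, 3.18, joined the border window 75560001 to 75600000, outside the empty intervals, with 77920001 to 77960000 between Epha4 and Pax3 (D′ 0.532 ± 0.101, 23 libraries together). These pairs were picked as the most extreme of 8112, so their size is a description.

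Of the 5 weakest pairs, 3 joined the Epha4 domain to windows of Sgpp2 and Farsb in the Pax3 domain, at z-scores of -2.90 to -2.99 and D′ values of 0.0327 to 0.119. The other 2 joined the gene-dense start of the region, at Tns1 and at Aamp, to 76600001 to 76640000, with D′ of -0.0386 ± 0.288 and -0.0610 ± 0.339, errors that reach widely because D′ is scaled differently above and below 0. Beyond 1 Mb, the window most linked to the Epha4 start was 75600001 to 75640000, next to the border that closes the Wnt6 and Ihh domain. They were 1.88 Mb apart and together in 26 libraries (D′ 0.445 ± 0.0870, 1.96 SD above the mean). The Pax3 start reached its highest z-score, 1.24, with the neighbouring border window, 75560001 to 75600000 (D′ 0.352 ± 0.0881). The Ihh start reached 1.75 with a window of Sgpp2 and Farsb 3.44 Mb away (D′ 0.367 ± 0.0828). The Wnt6 start reached only 0.751, with the Mreg window 2.56 Mb to its left (D′ 0.308 ± 0.0891). Each partner was picked as the highest from 1 to 4 Mb away, so these values are a description.

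The start windows of related genes on other chromosomes gave the range in which these 4 lie. The insulation score, ranked within each gene's own chromosome, was below the chromosome median for 11 of 14 Eph receptor genes, 6 of 9 Pax genes, 6 of 19 Wnt genes and 1 of 3 Hedgehog genes, a threshold that by definition has as many windows below as above it. Epha4 at the 4.85th percentile was the second lowest of the Eph genes after Ephb1, a receptor of the other ephrin class, at 4.47. Pax3 stood at percentile 31, close to the Pax median of 34.4. Wnt6 stood at 52.2 in its family, whose median was 54.3, and Ihh at 69.7 beside Shh at 35.7 and Dhh at 67.0. Neighbouring family members that share a window, such as Wnt6 and Wnt10a, share these values.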

How the data were processed

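GAM libraries (249) from mouse 46C embryonic stem cells were analysed from 1 table of 0 or 1 calls per 40 kb window. The authors aligned reads to mm9 with Bowtie2 2.1, removed duplicates with Samtools and called windows with GAMtools at a fixed read threshold. These deposited calls have no other unit, and read depth is not given in the sources used here. Libraries passing the authors' quality control are tabulated, and no pair was identical.

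D′ was computed for chromosome 1 pairs up to 4 Mb apart between windows positive in at least 25 libraries, with jackknife SE over libraries. Jackknife pseudo-values were tested by flipping signs (100000 resamples, two-sided), gene pairs by Fisher's exact test, both with Benjamini-Hochberg adjustment over chromosome 1 at 0.05. Gene starts came from GENCODE vM1, whose build matched the table's chromosome 1 end (197195432). Scripts were tested on simulated data (Python 3.11.15, numpy 2.4.6, scipy 1.17.1). The named items were the 4 genes, every border, the 5 highest and 5 lowest pairs at least 200 kb apart and each gene's highest partner beyond 1 Mb. Members and lists were chosen with earlier results of these data known. Alternatives changed the measure, distances, square, depth of minima, detection minimum and libraries, and centred the pseudo-values.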

Additional observations from a re-analysis of the deposited data

How the results depend on the processing

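No gene window or mirror comparison passed the adjusted threshold under any alternative run. No paired analysis was possible because replicate numbers here only name libraries. Detection of the region against other windows turned to -0.427 points against all other autosomal windows and to -0.126 over windows positive in at least 25 libraries, and ran from -0.546 to 1.17 with experiments left out. With medians in place of means, protocol contrasts turned to -1.66 (20 against 25 cycles), -6.98 (23 against 25 cycles), 6.47 (early against late freezing), 10.1 (large against small kit) and 1.52 points (1 against 2 µl proteinase K). Leaving out single libraries moved 20 against 23 cycles from -3.63 to 10.2, 20 against 25 cycles from 0.847 to 8.22, 23 against 25 cycles from -4.58 to 9.28 and proteinase K from -4.76 to 0.223, the highest without replicate 5 of the 2 µl arm, whose libraries were left out in an alternative chosen after seeing the data.

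The left minus right difference became -0.0136 for Wnt6 and -0.0190 for Ihh over 80 kb to 2 Mb, and -0.0238 and -0.000219 over 80 to 400 kb. Over the same distances it was 0.0918 and 0.112 for Epha4, and 0.0271 and 0.0524 for Pax3. With experiments or libraries left out it ran from -0.00166 to 0.0399 for Wnt6, 0.0134 to 0.0505 for Ihh, 0.119 to 0.187 for Epha4 and -0.0106 to 0.0276 for Pax3. For Epha4 the adjusted p was 0.0933 with the phi coefficient, 0.162 with centred pseudo-values and 0.477 with signs flipped for whole experiments. The count of chromosome 1 windows called, 24, became 50 with phi, 13 with centred pseudo-values, 3 over distances to 2 Mb, 0 with signs flipped for whole experiments, where 11 units limit how small p can be, and 4 (without propidium iodide) to 25 (without cresyl violet) with an experiment left out. The call at 77240001 was lost under each of these settings, with distances to 400 kb, without libraries under 5% coverage and with any of the 11 experiments left out. Without PCR cycles, cresyl violet or freezing after incubation a window at 75720001 was called in its place.

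The difference from the mirror side ran from -0.108 to -0.0400 for Pax3 and from -0.000455 to 0.0660 for Ihh and Wnt6, the lowest without early freezing. Held-out differences with the extreme library left out ran from -0.0597 to -0.00409 at 74.46 Mb, -0.0571 to 0.00388 at 75.58 Mb, -0.0938 to -0.0489 at 76.34 Mb and 0.0393 to 0.162 at 77.9 Mb. In the full collection alone, D′ was 0.122 for Wnt6 and Epha4, -0.169 for Wnt6 and Pax3, 0.4 for Ihh and Epha4, 0.19 for Ihh and Pax3 and 0.318 for Epha4 and Pax3, none called. In the other libraries Ihh and Pax3 gave 0.145, not called. The region held 3 borders with a square of 800 kb, 2 at a depth of 1 SD and 4 to 7 with experiments left out. The causes were not tested, and depth in reads, unknown here, sets no stated limit.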

Other observations

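The 3 borders of the region with a square of 800 kb lay at 74.06, 75.58 and 77.9 Mb, so the wider square left 1 domain from the end of the Wnt6 and Ihh domain to the stretch between Epha4 and Pax3. With a square of 240 kb there were 9 borders, 2 of them between the Epha4 and Pax3 genes. At a depth of 1 SD the borders at 75.58 and 77.74 Mb were the only ones called in the region. The last domain of the region, from 78.76 to 79.72 Mb, holds Scg2, which encodes a secretory granule protein, and Kcne4, a potassium channel subunit, among 4 gene starts, and its pairs had a mean z-score of 0.353, with -0.484 towards the Epha4 domain. The first, from 73.96 to 74.56 Mb, holds the chemokine receptor genes Cxcr1 and Cxcr2 among 14 starts and had 0.435 within, with -0.432 towards the Epha4 domain and -0.790 towards the second interval without genes.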
